A study of Homo sapiens with 6 samples.

Results

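Nucleoporins and nuclear transport receptors are the genes of the pore through the nuclear envelope and of the carriers that move proteins and RNA through it. The members were chosen by symbol: protein-coding genes named NUP, IPO, XPO, KPNA or TNPO followed by a digit, together with KPNB1, CSE1L, RAN, RCC1, RANBP1, RANBP2, RANGAP1, NXF1, NXT1, SEH1L and RAE1. This gave 56 of the 20033 protein-coding genes on chromosomes 1 to 22, X and Y in the RefSeq annotation of GRCh38.p14. MYC binding at them was read from ChIP-seq peak lists of MIAPaCa2, an established human pancreatic ductal adenocarcinoma cell line. All cells had been kept in serum-free DMEM for 48 hours. They then received, for 3 hours, either fresh DMEM (group DMEM) or conditioned medium from cancer-associated fibroblasts (group CM), and each group has 2 immunoprecipitated libraries. Each library has its own peak list, of 15304 and 12797 peaks in CM and 4657 and 7652 peaks in DMEM. Whether both libraries of a group came from separate cultures is not stated, so the spread between them may be technical. The series describes 1 cell line, the conditioned medium stands for the fibroblasts, and no RNA was measured here.

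The nuclear pore is built from nucleoporins arranged in rings, a central channel, cytoplasmic filaments and a nuclear basket. Importins carry cargo in and exportins carry it out, and the small GTPase Ran, loaded with GTP by RCC1 on chromatin, sets the direction of both. MYC pairs with MAX to bind DNA, preferably at the E-box CACGTG, and is known for occupying promoters of growth genes.

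MYC peaks lay at nearly all of these genes in fibroblast medium and at over 1 in 2 of them in DMEM. A gene is called bound in a library when a peak lies no more than 1000 bp from one of the gene's 2 annotated ends. In CM, 52 and 51 of the 56 genes were bound in libraries 1 and 2, against 43.9% and 40.9% of all protein-coding genes. In DMEM, 30 and 41 were bound, against 16.8% and 28.1% of all genes. Both libraries of a condition were required for a call, which gave 50 members in CM (background 39.1%) and 30 in DMEM (background 15.9%). The same 30 were bound in all 4 libraries (background 15.9%). A further 11 had peaks in both CM libraries and, of the DMEM pair, in library 2 alone (background for any 1 DMEM library 12.3%), and 9 were bound in both CM libraries and neither DMEM library, termed CM-only (background 11.0%). Among genes bound in both CM libraries, 18.0% of the members were CM-only, beside 28.1% of all such genes. Of the remaining 6 members, 3 had a peak in a single CM library (background 5.97%) and 3 had none at an end (background 54.1%). No member was bound in DMEM alone, as was no gene of the whole annotation (background 0.00%).

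**Figure D1:**
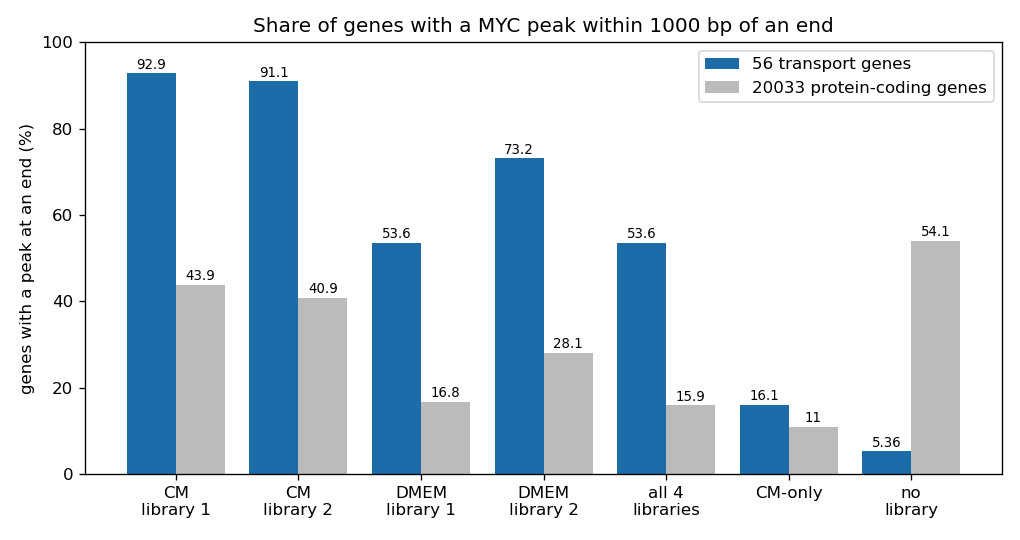
Share of genes, in percent, with a MYC peak within 1000 bp of an end, for the 56 transport genes (blue) and all 20033 protein-coding genes (grey), in each library and for 3 calls over the libraries. Among the transport genes 92.9% and 91.1% were bound in the CM libraries and 53.6% and 73.2% in the DMEM libraries, each above the grey bar beside it.

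The number of bound members averaged 51.5 ± 0.707 (SD, n = 2) in CM and 35.5 ± 7.78 (SD, n = 2) in DMEM. The counts of the 2 conditions did not overlap, and the DMEM libraries differed from each other far more than the CM libraries did. An exact two-sided permutation test of 2 against 2 libraries cannot give a p below 0.333, the value it gave for the 2.34-fold difference in peak number, so no difference between the conditions could pass a threshold. Read depth is unknown, and a list with more peaks calls more genes, so depth, immunoprecipitation yield and MYC binding cannot be told apart in these counts. With every list shortened to the 4657 peaks of highest score, 32 members were bound in both CM libraries, 27 in both DMEM libraries and 26 in all 4, and 3 were CM-only. Over all genes these lists gave 3609 and 2776 of 20033 bound in CM and in DMEM, 12.3% in all 4 and 1.93% CM-only.

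Promoters rich in CpG carried more peaks over the whole annotation, and most transport genes with a known promoter sequence have such promoters. Whether CpG content accounts for the peaks at the members was not tested. RefSeq sequence from 250 bases before to 50 bases after the start was on hand for 49 of the members and 15841 coding genes. The KPNA4, KPNA5, NUP43, KPNA7, XPO7, KPNB1 and RANBP1 promoters had no entry. A window held a median of 27 CpG in the members, 22 in all genes and 28 in genes bound in both CM libraries. Among the 8866 genes with at least 20 CpG, a split chosen after seeing the data, 58.5% had a peak in both CM libraries and 24.2% in all 4. Of the 38 members in that class, 37 had a peak in both CM libraries and 23 in all 4. Of the 11 members with fewer CpG, 7 and 4 were bound, where the background was 19.9% and 7.70%. CM-only genes were 8 of the 38 (background 15.7%) and 1 of the 11 (background 6.32%).

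The E-box stood inside the peaks at a minority of the members. CACGTG, which reads the same on both strands, was found in 7 of the 49 promoter windows (14.3%, exact binomial 95% interval 5.94% to 27.2%). It was in 8.88% of all promoter windows and in 16.6% of those of genes bound in all 4 libraries, so the members' share lay near that of other bound genes. The matches are shown with up to 27 bases on either side, ending at the base before the start, from RefSeq GRCh38.p14, in the direction of transcription and with the E-box in capitals. All 7 genes were bound in both CM libraries, and a peak covered the match in all 4 libraries at the first 4 genes listed and in 3 libraries at the last 3.
RAN, chr12:130871937-130871996, plus strand: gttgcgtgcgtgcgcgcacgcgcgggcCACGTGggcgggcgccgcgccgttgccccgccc
IPO7, chr11:9384487-9384546, plus strand: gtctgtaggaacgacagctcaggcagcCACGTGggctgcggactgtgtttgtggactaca
IPO4, chr14:24188817-24188872, minus strand: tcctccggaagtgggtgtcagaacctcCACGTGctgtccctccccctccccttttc
TNPO2, chr19:12723933-12723983, minus strand: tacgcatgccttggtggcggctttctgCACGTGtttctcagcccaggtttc
NUP188, chr9:128947642-128947698, plus strand: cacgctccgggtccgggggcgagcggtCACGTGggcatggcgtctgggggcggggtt
KPNA3, chr13:49792716-49792775, minus strand: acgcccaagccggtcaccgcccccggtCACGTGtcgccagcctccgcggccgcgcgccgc
NUP50, chr22:45163724-45163783, plus strand: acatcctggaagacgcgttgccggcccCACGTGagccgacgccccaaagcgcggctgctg

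The motif began 102 bases before the start in RAN, 138 in IPO7, 29 in IPO4, 24 in TNPO2, 66 in KPNA3 and 174 in NUP50. NUP188 held 2 matches, 77 and 30 bases before its start, of which the nearer is shown. RAN had its match 32 to 70 bp from the midpoint of its peak in all 4 libraries. IPO4 had it 18 to 84 bp away. In IPO7 the match lay 13 and 76 bp from the midpoint in the DMEM libraries and 477 and 412 bp from it in the CM libraries, whose peaks reached further into the gene.

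The related hexamer CACGCG, searched on both strands (CGCGTG on the other), was in 11 of the 49 windows (22.4%), beside 14.8% of all windows and 25.9% of those of genes bound in all 4. CATGTG or its reverse complement CACATG was in 3 (6.12%, beside 8.43% of all). CACGTG cannot share bases with either of the other hexamers on any strand. The RAN promoter is shown over the 250 bases before the start with CACGTG and CACGCG in capitals. It holds 1 CACGTG and 3 CACGCG.
RAN, chr12:130871816-130872065, plus strand: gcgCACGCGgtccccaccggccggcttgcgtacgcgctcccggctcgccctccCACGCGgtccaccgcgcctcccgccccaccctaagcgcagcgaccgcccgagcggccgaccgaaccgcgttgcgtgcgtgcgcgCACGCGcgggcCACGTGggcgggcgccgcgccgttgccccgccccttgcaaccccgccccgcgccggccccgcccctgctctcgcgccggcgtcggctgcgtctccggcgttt

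RANBP2 and XPO6, 2 of the highest-ranked genes without CACGTG in the window, both held CACGCG, which XPO6 carries on the other strand. SEH1L and NUP88, above the 90th percentile in all 4 lists, held none of the 3 hexamers in their windows. The 60 bases before the SEH1L start are shown for comparison. No match says only that these letters are absent from this window.
RANBP2, chr2:108719327-108719386, plus strand: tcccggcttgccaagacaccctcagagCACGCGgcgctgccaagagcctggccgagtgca
XPO6, chr16:28212134-28212193, minus strand: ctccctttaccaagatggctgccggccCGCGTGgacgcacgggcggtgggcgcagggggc
SEH1L, chr18:12947951-12948010, plus strand: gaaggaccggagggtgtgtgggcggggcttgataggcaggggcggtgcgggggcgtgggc

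**Figure D2:**
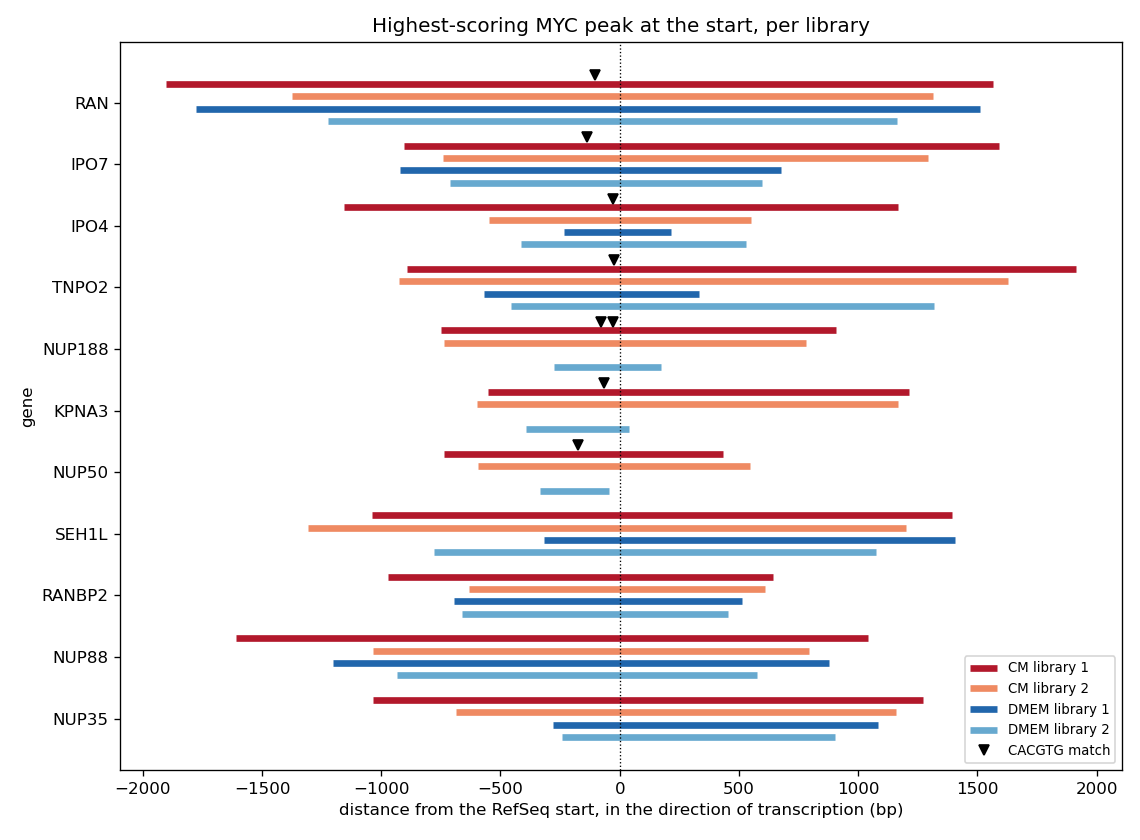
Extent of the highest-scoring MYC peak within 1000 bp of the RefSeq start of 11 genes, in bp from that start in the direction of transcription, as 1 bar per library, with triangles at CACGTG matches. Bars are missing in DMEM library 1 for NUP188, KPNA3 and NUP50, and all 4 libraries have a bar at NUP35, whose start lies inside the annotated gene.

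Of the Ran cycle genes, RAN and RANBP1 were among the best-ranked in all 4 libraries, and RCC1 and RANGAP1 were not. The authors' score was used only as a percentile within its own list, where 100 is the highest-scoring peak, and each gene is represented by the highest-scoring peak at its ends. RAN, on chromosome 12 at 130872066 to 130877678, had percentiles of 99.4 and 98.3 in the CM libraries and 98.4 and 98.3 in the DMEM libraries. Its peak took rank 87 of 15304 in CM library 1 and rank 70 of 4657 in DMEM library 1. It was high in all 4 libraries, the conditions overlapped, and its mean of 98.6 was the highest of the 56 genes. RANBP1, which helps release GTP-bound Ran from transport receptors, had percentiles of 94.8 and 96.7 in CM and 96 and 93.6 in DMEM. These overlapped as well. Its peak also lay at the end of the neighbouring gene TRMT2A. RANBP1 was no longer bound in all 4 with a window of 500 bp, and was bound in no library when the peak midpoint had to lie in the window or when peaks shared with another coding gene were left out.

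RCC1, the exchange factor that loads Ran with GTP, had percentiles of 96.3 and 85.0 in CM and of 88.6 and 46.9 in DMEM. The spread between the DMEM libraries covered part of the CM range. RCC1 was no longer bound in all 4 when the midpoint had to lie in the window. Its peaks also lay at the ends of SNHG3 and of the small nucleolar RNA genes SNORA73A and SNORA73B. Inside RCC1, away from the ends, the highest-scoring peaks had percentiles of 85.2 and 92.1 in CM and 66.6 and 60.4 in DMEM. In library 2 of both conditions this inner peak ranked above the one at the end. RANGAP1, the activator of GTP hydrolysis by Ran, had 56.1 and 78.0 in CM, 56 in DMEM library 2 and no peak at an end in DMEM library 1. The highest-scoring peak at its ends lay inside the gene, with the midpoint 749.5 to 775.5 bp past the start, and its promoter window met no peak in any library. A leading peak of RANGAP1 also lay at the end of ZC3H7B. Further inside RANGAP1, away from the ends, all 4 libraries had a peak, at percentiles of 81.6 and 87.7 in CM and 23.8 and 68.0 in DMEM, with 41285108 to 41287333 on chromosome 22 as its span in CM library 1.

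Importin beta genes ranged from the top of the lists to no peak at either end. Of 11 genes, 9 had a peak in both CM libraries and 5 in all 4. KPNB1, importin beta 1 and the main import receptor, had percentiles of 98.6 and 95.7 in CM and 87.9 and 95.5 in DMEM. IPO7 had 99.2 and 98.3 in CM and 96.1 and 96.4 in DMEM. IPO4 had 97.7 and 97.3 in CM and 83.8 and 96.9 in DMEM, with a peak that also lay at the end of TM9SF1. In all 3 both CM values stood above both DMEM values in the deposited lists, and in lists of equal length the conditions overlapped in all 3.

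TNPO2, a transportin that imports RNA-binding proteins, was also bound in all 4 libraries, at 93.9 and 95.8 in CM and 79.2 and 91.8 in DMEM. IPO11 had the lowest mean percentile of the 5, 57.7 over the 4 libraries. IPO13 and TNPO3 lacked a peak in DMEM library 1 only. IPO9 and TNPO1 were CM-only. IPO8 had a peak in CM library 2 alone, at percentile 36.9.

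The importin alpha adaptors, which bind classical nuclear localisation signals and hand the cargo to KPNB1, were bound in both CM libraries at 6 of 7 genes. The exception was KPNA7, which is described with the paralogues of narrow expression. Of the 6 genes KPNA1 to KPNA6, KPNA4 and KPNA2 were bound in all 4 libraries. KPNA4 had percentiles of 96.1 and 95.1 in CM and 87.4 and 95 in DMEM. KPNA2 had 85.6 and 79.2 in CM and 49.2 and 65.0 in DMEM. Its leading peaks in the 2 DMEM libraries did not overlap, the only such case among the 30 members bound in all 4, and it is not bound in the authors' common DMEM list. KPNA3, KPNA5 and KPNA6 had no peak in DMEM library 1, and KPNA1 had none in either DMEM library.

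Exportin genes were bound in CM without exception, and 5 of 6 were bound in all 4 libraries. XPO6, the exportin of actin, had percentiles of 96.0 and 97.4 in CM and 90.2 and 94.7 in DMEM. CSE1L, which returns importin alpha to the cytoplasm, had 96.3 and 94.9 in CM and 79.8 and 92.8 in DMEM. XPO1, the receptor for leucine-rich export signals, had 83.7 and 89.8 in CM and 66.6 and 64.7 in DMEM. In each of the 3 the CM values were the higher ones in the deposited lists, and in lists of equal length the conditions overlapped in all 3. XPO1 also had a peak inside the gene, at percentiles of 97.0 and 86.6 in CM and 75.6 and 69.6 in DMEM. XPO4 and XPO5, the exportin of microRNA precursors, were bound in all 4, while XPO7 lacked a peak in DMEM library 1. A leading peak of XPO5 also lay at the end of POLH. XPO5 was bound in no library when peaks shared with another coding gene were left out.

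**Figure D3:**
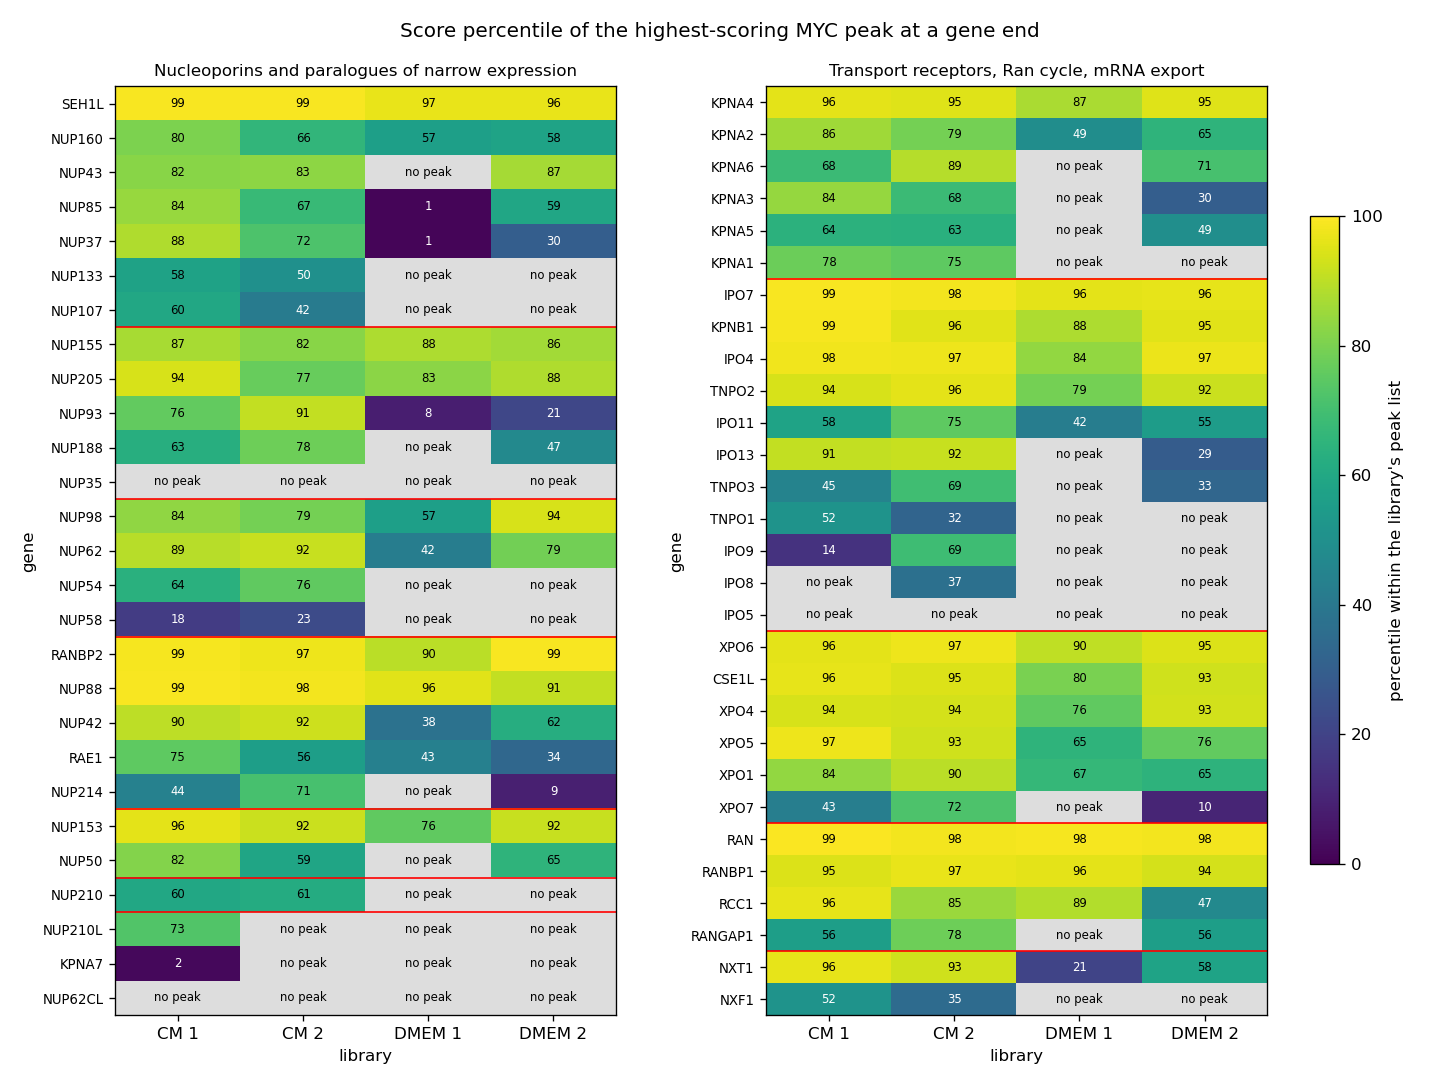
Percentile of the highest-scoring MYC peak at an end of each of the 56 genes (rows, grouped by role between red lines) in the 4 libraries (columns), where 100 is the top of a library's list and grey cells had no peak at an end. RAN, IPO7, SEH1L and NUP88 stand above 90 in all 4 columns, and most grey cells lie in the DMEM columns.

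Both genes of the export receptor for mRNA were bound in CM. NXT1, the small partner of NXF1, had percentiles of 96.2 and 92.6 in CM and 20.5 and 58.2 in DMEM. The DMEM values were low and apart from each other, and both lay below CM. NXF1 was CM-only, at 51.6 and 35.0. These values belong to a peak at the far end of NXF1, shared with TMEM223, on chromosome 11 from 62791515 to 62792496 in CM library 1. Near the NXF1 start each CM library had a weaker peak, at percentiles of 23.8 and 0.633, and these 2 peaks did not overlap.

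Among the nucleoporins, 23 of 26 were bound in CM and 14 in all 4 libraries, counting RANBP2, SEH1L and RAE1. Genes of the cytoplasmic side were all bound in CM and 4 of 5 in all 4 libraries. RANBP2, the large filament nucleoporin that binds Ran, had percentiles of 98.6 and 97.3 in CM and 89.7 and 99.1 in DMEM. NUP88 had 99.1 and 98.3 in CM and 95.5 and 91 in DMEM, with a peak shared with the neighbour RPAIN. RANBP2 values overlapped between the conditions. NUP88 values were higher in CM in the deposited lists and overlapped in lists of equal length. NUP42 and RAE1, both linked to mRNA export, were bound in all 4, and NUP214 had percentile 8.7 in DMEM library 2 and no peak in DMEM library 1.

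The Y complex, the outer ring scaffold, had all 7 genes bound in CM and 4 in all 4 libraries, with a wide range of ranks. SEH1L had percentiles of 99.2 and 99.1 in CM and 96.7 and 96.5 in DMEM. At the other end of the range, NUP37 had 88.3 and 72.1 in CM and 1.2 and 30.1 in DMEM, and its peak also lay at the end of PARPBP. NUP37 was CM-only with a window of 500 bp or when the peak midpoint had to lie in the window. It was bound in no library when peaks shared with another coding gene were left out. NUP85 had 84.4 and 67.5 in CM and 1.2 and 59.4 in DMEM. In DMEM library 1 the values of NUP37 and NUP85 both came from peaks at rank 4572 of 4657, close to the authors' threshold. NUP160 was bound in all 4, NUP43 in all but DMEM library 1, and NUP107 and NUP133 were CM-only.

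In the inner ring, NUP155 had percentiles of 87.1 and 82.4 in CM and 87.9 and 86.0 in DMEM and these values overlapped. NUP155 and NUP205 were the 2 of the 30 members bound in all 4 whose mean was not higher in CM. NUP205 had 93.8 and 76.7 in CM and 82.6 and 87.9 in DMEM. In lists of equal length NUP155 had 57.6 and 51.6 in CM and 87.9 and 77.0 in DMEM, and NUP205 had 79.8 and 36.1 in CM and 82.6 and 80.2 in DMEM, so both were lower in CM there. NUP93, the linker of the inner ring, had 75.8 and 90.8 in CM and 8.3 and 21.4 in DMEM. In the deposited lists NUP93 showed the largest difference of the 30 members bound in all 4, 68.5 percentile points. In lists of equal length NUP93 had 20.4 and 74.7 in CM, 8.3 in DMEM library 1 and no peak in DMEM library 2. NUP188 lacked a peak in DMEM library 1.

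NUP35 was counted as unbound by the rule but carried a strong peak inside its annotated span. Its outermost ends lie at 183117514 and 183161680 on chromosome 2, while the RefSeq start used for its promoter is at 183124443. A peak covered that start in all 4 libraries, at percentiles of 94.4 and 95.2 in CM and 95.2 and 92 in DMEM. With the RefSeq start added to the 2 ends, an alternative chosen after seeing the data, NUP35 joined the genes bound in all 4 and no other member changed. That rule gave 51 members bound in CM and 31 in all 4, against 16.5% of all genes in all 4.

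IPO5 had no peak at its ends or at its listed start at 97953675 on chromosome 13, where the promoter window held 5 CpG. Peaks inside the gene reached percentiles of 82.9 and 73.3 in the CM libraries, the first from 97976607 to 97977788, and 43.2 in DMEM library 2. DMEM library 1 had none there. TNPO1, CM-only by its ends, had an inner peak in all 4 libraries, at 84.7 and 77.7 in CM and 28.5 and 70.9 in DMEM. The peak of TNPO1 in CM library 1 spanned 72847675 to 72849570 on chromosome 5.

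In the central channel, NUP62, a nucleoporin with the repeats that form the permeability barrier, was bound in all 4 at 89.1 and 91.7 in CM and 42.3 and 78.8 in DMEM, with a peak that also touched the ends of ATF5 and IL4I1. NUP98 was bound in all 4 as well, and NUP54 and NUP58, the partners of NUP62, were CM-only. Of the basket genes, NUP153 was bound in all 4 and NUP50 lacked a peak in DMEM library 1. NUP210, a membrane nucleoporin, was CM-only.

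The 3 paralogues of narrow expression were not bound in both CM libraries. NUP62CL had no peak in any library. NUP210L had a peak in CM library 1 at its far end, shared with RAB13 and RPS27, at percentile 73.0. KPNA7 had one in CM library 1 at percentile 2.0 that also lay at the end of SMURF1. Inside KPNA7 both CM libraries had a peak away from the ends, at percentiles of 45.9 and 9.85, and neither DMEM library had one.

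The 9 CM-only genes ranked between percentiles 14.5 and 77.5 in CM, where the medians of all bound genes were 69.3 and 65.7. KPNA1 led them with percentiles of 77.5 and 75.2, followed by NUP54 with 63.6 and 75.8 and NUP210 with 60.1 and 61.4. NUP133 had 57.7 and 50.1, and NUP107 had 60.1 and 41.7 from a far-end peak that also lay at SLC35E3. A weaker peak covered the NUP107 start in both CM libraries, at 51.6 and 31.4. NUP107 stayed CM-only by its start end alone and when peaks shared with another coding gene were left out. TNPO1 had 51.6 and 32.2, IPO9 14.5 and 69.0 and NUP58 17.9 and 22.9, while NXF1 is given above. None reached the 90th percentile in either CM library. Without DMEM library 2 the 11 genes bound in that DMEM library alone joined them, which made 20 (background 22.4%). Leaving out DMEM library 1 kept 9 (background 11.8%). In lists of equal length KPNA1 alone remained of the 9, joined by IPO13 and KPNA3.

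Members bound in all 4 libraries ranked higher than other such genes in each list. Their median percentiles were 94.5 and 92.5 in CM and 77.4 and 89.5 in DMEM, beside 89.2, 86.7, 63.5 and 77.4 for all 3178 genes bound in all 4. At least the 90th percentile was reached by 20 members in each CM library, 38.5% and 39.2% of those bound, beside 18.6% and 16.5% of all bound genes. In DMEM it was reached by 6 of 30 and 15 of 41 bound members, beside 14.7% and 14.2% of all bound genes. RAN, RANBP1, SEH1L, NUP88, IPO7 and XPO6 reached it in all 4 libraries.

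Percentiles were higher in CM than in DMEM for most of these 30 genes, as for most genes of the annotation. In 23 of the 30, both CM values lay above both DMEM values, and in 0 below, where the background was 67.5% and 0.944%. The median difference was 9.36 percentile points for the 30 and 16.2 for all 3178 genes. A longer list adds weak peaks below a gene and raises its percentile by construction. In lists of 4657 peaks each, 26 members were bound in all 4, with 4 higher and 4 lower in CM (22.2% and 15.8% of all such genes) and a median difference of 1.40 points. XPO5, NUP42, SEH1L and NXT1 were the higher ones and KPNA4, NUP155, NUP205 and NUP98 the lower ones. NXT1 had 87.4 and 79.7 in CM against 20.5 and 31.3 in DMEM there. Of the 4 members that left, NUP93 and NUP37 lost DMEM library 2, IPO11 lost CM library 1, and RAE1 lost CM library 2 and DMEM library 2. With a minimum score of 50, NUP93, NUP37, NUP85, NXT1 and NUP42 were no longer bound in all 4.

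**Figure D4:**
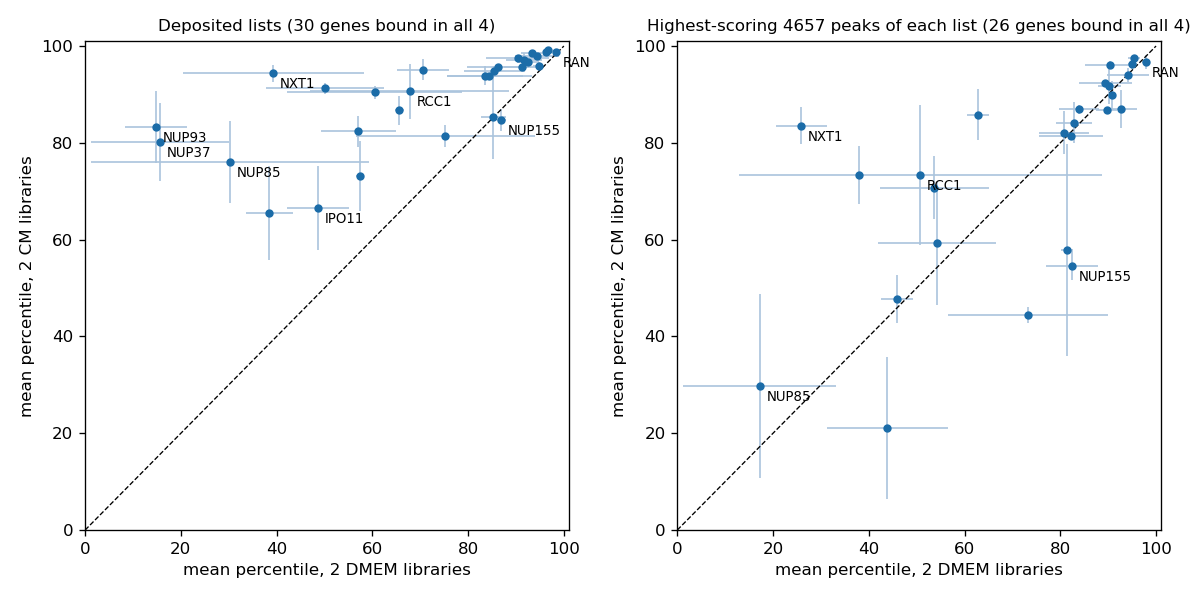
Mean percentile of the 2 CM libraries against that of the 2 DMEM libraries for genes bound in all 4, in the deposited lists (left, 30 genes) and with the 4657 highest-scoring peaks of each list (right, 26 genes). Bars run from one library's value to the other's and the dashed line marks equal values. Nearly all points lie above the line on the left and on both sides of it on the right.

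In the deposited lists the spread between libraries of a condition was larger in DMEM. Between the 2 libraries the percentile of the 30 members differed by a median of 3.23 points in CM and 11.8 points in DMEM, with maxima of 19.3 and 58.1 points. For all genes bound in all 4 the medians were 3.85 and 14.5 points. The CM lists are longer, and a longer list raises percentiles by construction. In lists of equal length the CM values also lay far apart at some members, with 79.8 and 36.1 for NUP205 and 48.8 and 10.7 for NUP85. The DMEM values did so for RCC1, at 88.6 and 12.8. RAN values were close in both conditions, at 98.1 and 95.2 in CM and 98.4 and 97.2 in DMEM. The median spread was not computed in those lists, and whether list length accounts for the larger DMEM spread was not tested.

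Peaks at the transport genes were wider than the leading peaks of all genes. In CM the share with a midpoint close to the start was near that of all genes. Their median widths were 1641 and 1101 bp in CM and 754.5 and 777 bp in DMEM, beside 1126, 847, 514 and 522 bp for the leading peaks of all genes. The widest, at RCC1 in CM library 1, spanned 3730 bp. Of the 45 bound members with a known strand in each CM library, 42 and 43 had their leading peak at the start end. The exceptions were NXF1 and NUP107 in both and NUP210L in CM library 1. In DMEM no leading peak was at the far end. Where the midpoint lay within 1000 bp of the start, it lay within 250 bp in 56.1% and 57.1% of members in the CM libraries, beside 52.3% and 56.2% of all genes. The median midpoint of these member peaks, positive past the start, was at 113 and 113 bp in CM and at -91.75 and 24.25 bp in DMEM. For all genes it was at 53 and 35.5 bp in CM and at 2.25 and 3.5 bp in DMEM. For 12 of the 50 members bound in CM, a leading peak also lay within 1000 bp of an end of another coding gene. These included NUP43 beside PCMT1, NUP188 beside DOLK and NUP98 beside PGAP2. When such shared peaks were left out, 40 members were bound in CM, 23 in all 4 and 9 in CM alone, beside 5087 of 20033 genes in CM, 9.51% in all 4 and 7.71% in CM alone.

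Other genes of the pathway, from a list outside the members, were bound in part. The list held 32 pore components, export factors and SUMO enzymes, of which 25 were bound in CM (background 39.1%), 14 in all 4 (background 15.9%) and 3 in CM alone (background 11.0%). NUTF2, the import factor of Ran itself, had the highest mean of that list over the 4 libraries, with percentiles of 97.9 and 97.8 in CM and 97.5 and 96.3 in DMEM. NCBP2, a subunit of the nuclear cap-binding complex, had 98.2 and 98.5 in CM and 93.6 and 95.7 in DMEM. AHCTF1, the nucleoporin ELYS, and NDC1, a membrane nucleoporin, were bound in all 4, while SEC13 and AAAS had no peak at an end. Of 14 lamina and envelope genes outside transport, 11 were bound in CM (background 39.1%) and 6 in all 4 (background 15.9%). LMNA, LMNB1 and LMNB2 were among those bound in all 4, and SYNE1 and SYNE2 had no peak at an end. The difference between these lists and the members was not tested.

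Peaks were also set beside markers of the cell types involved. Of 6 ductal and epithelial markers, 4 were bound in CM (background 39.1%). KRT8, KRT18 and KRT19 were bound in CM alone (background 11.0%) and MUC1 in all 4 (background 15.9%). EPCAM and CDH1 had no peak at an end (background 54.1%). Of 8 fibroblast markers none was bound in both CM libraries (background 39.1%), and ACTA2 had a peak in CM library 2 alone at percentile 11.8. A peak is not a measure of expression, so these counts do not check the identity of the cells.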

How the data were processed

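MYC ChIP-seq peak lists of 4 immunoprecipitated libraries were used. The 2 input samples were not analysed here. The submitters' processing notes name MACS2 2.1.1.20160309, Bowtie2 2.3.4, Trim Galore 0.4.3, Picard 2.9.0 and SAMtools 1.3.1, and build GRCh38. For the settings and the peak-calling control, the sources used here give nothing. Each deposited list holds a whole-number score per peak, of at least 13, made by the authors, without read counts, so depth is unknown. The authors' common lists for CM and DMEM carry the mean score of both libraries (checked on all 9901 and 3380 intervals, within 0.01) and served as an alternative.

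Percentiles, overlaps with gene ends and motif counts were computed in Python 3.11.15 with pandas 2.3.3. Calls were checked on simulated peaks. The members and lists were chosen with earlier results of these data known, so no list test was made. Values were always given for the Ran cycle genes, RANBP2, KPNB1, KPNA2, CSE1L, XPO1 and NXF1, then for the 10 genes bound in all 4 with the highest mean percentile, up to 10 CM-only genes, every gene unbound or bound in 1 CM library, and up to 4 of the largest non-overlapping differences in each direction. Values of other members, and the peaks inside genes, were chosen after they were seen. Strand came from the RefSeq promoter table.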

Additional observations from a re-analysis of the deposited data

How the results depend on the processing

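Calls of the members were recomputed under 13 settings, and 614 of 728 single calls were the same. The counts bound in CM, in DMEM and in all 4 libraries stayed within 1.5 times of 50, 30 and 30, and DMEM-only stayed at 0, except that 32 were bound in CM in lists of equal length. CM-only members numbered 3 there (1.93% of all genes) and 22 with the authors' common lists (23.7% of all genes), where a gene needs only to be missing from the common DMEM list. Leaving out 1 library at a time gave 9 to 20 CM-only members, the highest without DMEM library 2. The CM-only share of all genes was then 22.4%, and it was 11.8% without DMEM library 1. Without CM library 1 or 2 it was 12.6% or 15.3%. The 7 members without a promoter entry could not be called by the start end only.

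The difference in bound members per library, 16.0, ranged from 10.5 without DMEM library 1 to 21.5 without DMEM library 2. With the replicate block it was 16.0, from 22 and 10 in the same-numbered pairs. Library numbers share no stated origin, and the deviations of same-numbered libraries correlated at 0.0495 across genes bound in all 4. The median percentile difference was 1.40 in lists of equal length, with 4 genes higher in CM in place of 23, and 8.62 to 16.3 when 1 library was left out. Counting CACGCG with CACGTG raised the share of member promoters from 14.3% to 32.7%, since a second motif was admitted. With both motifs the share was 22% of all promoters and 38.3% of those of genes bound in all 4 libraries.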
